A study of Arabidopsis thaliana with 2 samples.

Results

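The genes described here are those that the authors' table names with an Arabidopsis nuclear locus and describes with the word DnaJ, the family of co-chaperones also called J proteins or HSP40. The rule gave 119 gene entries of the 25527 entries in the table with such a locus name. Of these, 116 name 1 locus and 3 name 2 loci that share a probe. The rule reads names and descriptions only, and no measured value enters it.

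The cells were T87, a green suspension culture of Arabidopsis thaliana, grown untreated in a modified LS medium and passed to fresh medium each week. They were harvested 8 days after inoculation and 1 day after inoculation, with 1 array for each day and no replicate culture. Each array set RNA of the polysomal part of a sucrose gradient against RNA of all its fractions. The polysome ratio used below is taken to be the polysomal amount of an mRNA as a percent of its total amount. No test between days is possible with 1 array a day, so every difference describes these 2 arrays, and a change is given as the log2 of day 8 over day 1.

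J proteins carry a J domain, with a conserved histidine, proline and aspartate motif, that binds HSP70 chaperones and stimulates their ATPase. They also choose much of what HSP70 acts on. Type A members add a zinc finger and a substrate-binding C-terminus, type B members have the C-terminus without the zinc finger, and type C members share little beyond the J domain. A few plant proteins carry only the DnaJ type of zinc finger. Plants hold J proteins in the cytosol, the endoplasmic reticulum, mitochondria, plastids and the nucleus.

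The reading of the ratio rests on the title of each sample, which calls it a polysome ratio, and on the values. The labels name the dyes inconsistently, and a sentence on the spike-in RNAs speaks of a nonpolysomal pool, so polysomal over total is the likely direction and denominator, not a settled one. With the ratio turned, every order and every higher or lower below would be turned too, so that the top 10% would be the bottom 10%. If the other pool were the nonpolysomal one, the order of entries within a day would be the same, and the median DnaJ share on polysomes would be 20.2% on day 8 against 27.0% on day 1. With the likely reading, the 3 untranslated small nuclear RNAs with signal had medians of 0.53% on day 8 against 1.68% on day 1, and 5 small nucleolar RNAs had medians of 4.68% and 3.29%. The order of the days thus differed between these kinds of RNA, and both kinds lay far below the median entry. Amplification relied on oligo(dT) priming, and whether these features read the small RNAs themselves was not tested. Their low values therefore cannot settle the direction of the ratio. Across all entries with signal, 0.168% on day 8 against 0.376% on day 1 lay above 100%, and no DnaJ entry did on either day. The ratio is measured on a bulk culture, so a shift in the kinds of cells and a shift in loading within each cell cannot be told apart. All 4 markers of green cells that were looked up gave signal on both days, as did 3 of 3 xylem markers, 1 of 2 pollen markers, 1 of 2 root hair markers and 0 of 2 guard cell markers. On day 1 the xylem markers XCP1 and XCP2 read 52.1% and 58.9%, the pollen marker 51.9% and the root hair marker 55.0%. Features without signal read much the same that day, such as 53.6% for AT1G44160, so signal of these markers on day 1 is uncertain. The xylem marker IRX3 read 28.0%. The green-cell markers differed widely. CAB2 had 11.1% on day 8 against 33.6% on day 1, RBCS1A had 12.0% and 42.6%, PSAD-1 had 36.2% and 37.8%, and LHCB2.1 had 206% and 29.5%. The LHCB2.1 value was the highest of all entries on day 8 and cannot be a share of a total. The xylem markers had changes between -0.95 and -0.62, as log2 of day 8 over day 1. A ratio gives no level, so how much of each such cell type was present was not measured, and its part in the DnaJ values was not tested.

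Signal on both days was found for 109 of the 119 DnaJ entries (91.6%), where 77.1% of all entries had it. A feature counted as without signal when its value lay within 0.006, on the deposited log10 scale, of a local value. That local value was the median of nearby features of any kind that read close to the negative-control median. No signal on either day was found for 3 entries, AT1G09260, AT2G20465 and AT5G50115. Signal on day 8 alone was found for 3, with ratios of 31.7% for AT1G11040, 9.55% for AT1G44160 and 47.3% for AT5G62780. Signal on day 1 alone was found for 4, with ratios of 41.4% for AT1G59725, 28.3% for AT3G06778, 31.8% for J20 and 34.0% for AT4G19580. The value of features without signal lay at -2.00 on the log2 scale on day 8, close to the DnaJ median of -1.98, so an entry with a true ratio there would also be left out on that day. On day 1 that value lay at -0.89, so it changed by -1.10 between the days. An entry with weak signal on both days could drift towards that change. The part of such entries in the 2-fold counts below was not tested.

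As a family, DnaJ mRNAs lay where most mRNAs lay on both days. The median of their ratios was 25.3% on day 8 against 36.9% on day 1, beside 24.2% and 36.0% for all 19678 entries with signal. On day 8 the DnaJ ratios ran from 3.88% to 53.3%, and on day 1 from 16.1% to 59.3%. The middle of the family was spread over 0.85 on the log2 scale on day 8 and 0.26 on day 1 (interquartile ranges), against 1.00 and 0.31 for all entries. On day 8, 8 members lay in the top 10% of all entries and 8 in the bottom 10%. On day 1, 7 lay in the top 10% and 10 in the bottom 10%.

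**Figure D1:**
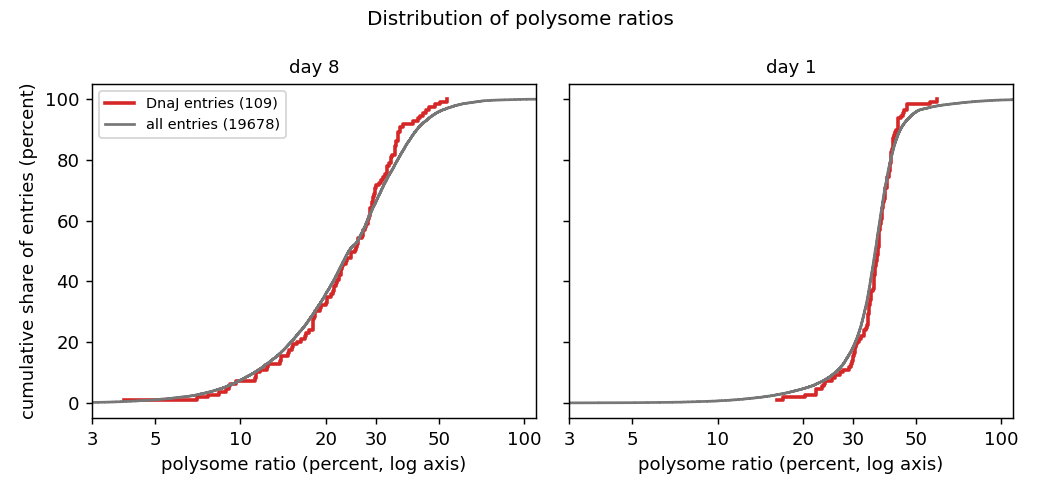
Cumulative share of entries (percent, vertical axis) against polysome ratio (percent, log axis) on day 8 (left) and day 1 (right), for the 109 DnaJ entries in red and all 19678 entries with signal in grey. The curves run close together on each day, with medians of 25.3% and 24.2% on day 8 and 36.9% and 36.0% on day 1, and the day 8 curves are the wider ones; entries beyond the axis are not drawn.

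The log2 change had a median of -0.56 over DnaJ members, which is 0.678 times the day 1 ratio, and of -0.52 over all entries. The ratio was lower on day 8 for 95 members and higher for 14, where 81.4% of all entries were lower and 18.5% higher. Of the members, 24 (22.0%) were lower by at least 2-fold, against 25.7% of all entries. Higher by at least 2-fold were 0 members, against 1.18% of all entries. The members nearest that limit were AT5G05750, with a change of -1.02, and AT2G35795, with -0.99. These shares lie close to the background, so they say nothing particular about the family.

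The position of 0 is uncertain, because the 10 spike-in probes had a median change of -0.29 themselves, and 9 of them lay below 0. Counted from the median spike-in, 33 DnaJ members were higher on day 8, where 36% of all entries were. Counted from the median entry, 58 members lay below and 51 above, where 50% of all entries lay below. From that 0, 12 members were at least 2-fold lower and 1 at least 2-fold higher, where 10.8% and 4.39% of all entries were. A member higher on day 8 as deposited was therefore higher from each of these 3 positions of 0.

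Within the family, the order of members on day 1 said part of their order on day 8, with a Spearman rho of 0.458 over 109 members, against 0.390 over all entries. The change was ordered much like the day 8 ratio (rho 0.885) and hardly like the day 1 ratio (rho 0.083). The change is computed from both ratios, and all values of a day come from 1 array, so these are descriptions across genes.

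**Figure D2:**
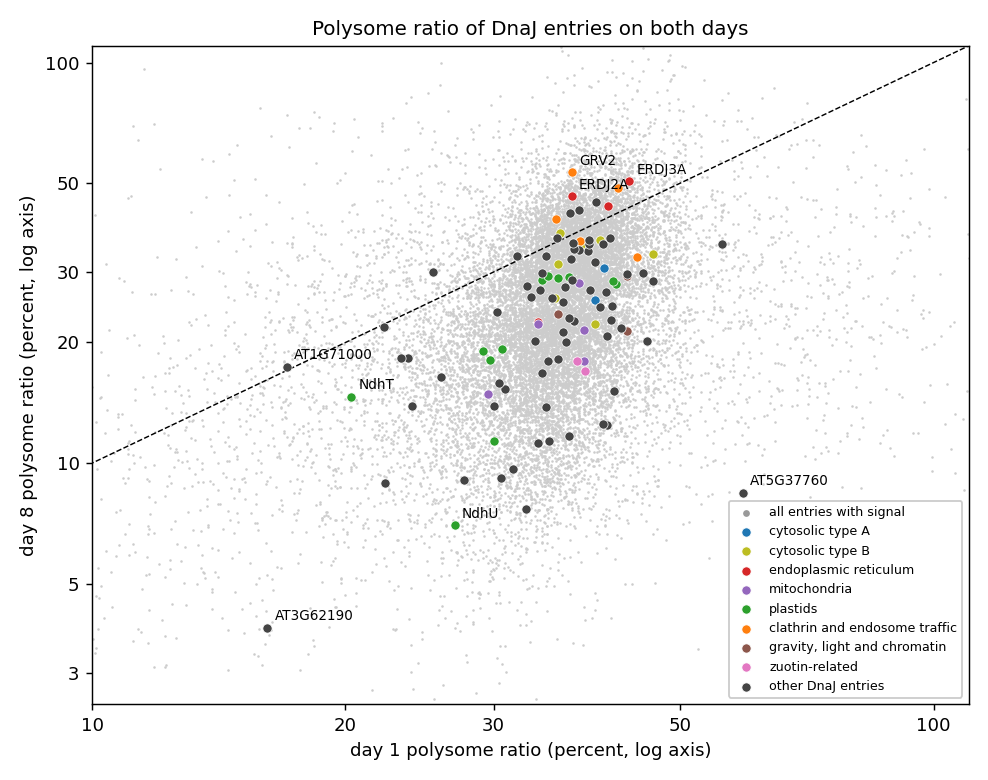
Day 8 polysome ratio (vertical, percent, log axis) against day 1 polysome ratio (horizontal, percent, log axis) for 109 DnaJ entries, coloured by role group, over all entries with signal in grey, with the dashed line of equal ratios and entries beyond the axes not drawn. Most DnaJ entries sit below the line between 30% and 50% on day 1; 14 lie above it, GRV2 and ERDJ2A among the highest, and AT5G37760 and AT3G62190 stand apart at 8.43% and 3.88% on day 8.

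The role groups below hold 2 to 12 members with signal on both days, so their counts are descriptions, to be read against all entries, of which 81.4% were lower on day 8 and 50% lay below the median change.

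In the cytosol, the type A members J2 and J3 are farnesylated partners of HSP70 with a broad range of substrates. J2 had 25.5% on day 8 against 39.5% on day 1, a change of -0.63. J3 had 30.8% and 40.6%, a change of -0.40. Both had a ratio above the all-entry median on each day.

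The cytosolic type B members, relatives of animal DNAJB proteins, lay above the median entry in their change in 6 of 7 cases with signal on both days. The median of their ratios was 33.3% on day 8 against 38.1% on day 1. AT2G20560 was the 1 member with a higher ratio, 37.5% on day 8 against 36.0% on day 1. AT5G25530 had 35.1% and 38.1%, AT4G28480 had 36.1% and 40.1%, and AT1G10350 had 31.4% and 35.8%. AT3G08910, with 33.3% and 46.5%, was among the highest of the family on day 1. Its day 1 value lay at -0.14 on the log2 scale from the local value without signal, so it is uncertain. AT5G01390 was the exception, with 22.2% on day 8 against 39.6% on day 1, a change of -0.83. AT3G47940 had 25.8% and 35.5%, a change of -0.46 that lay close to that of the median entry. The middle of the group was spread over 0.32 on the log2 scale on day 8 and 0.15 on day 1 (interquartile ranges). For all entries these were 1.00 and 0.31, so a wider spread on day 8 is not particular to the group.

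The endoplasmic reticulum members made up 3 of the 8 DnaJ entries in the top 10% of all entries on day 8, under the likely direction of the ratio. ERDJ2A and ERDJ2B are homologues of yeast Sec63, which works at the translocon where proteins enter the endoplasmic reticulum. ERDJ2A had 46.3% on day 8 against 37.2% on day 1, a change of 0.32. ERDJ2B had 43.9% and 41.0%, a change of 0.10. ERDJ3A, also named TMS1 and needed for pollen growth in heat, had 50.6% and 43.5%, a change of 0.22. ERDJ3B, a lumenal partner of the HSP70 protein BiP, had 22.5% on day 8 against 33.9% on day 1, a change of -0.59. So 3 of these 4 members were higher on day 8, where 18.5% of all entries were, and the change of ERDJ3B lay near that of the median entry.

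Members that serve mitochondria were lower on day 8 in 5 of 5 cases, where 81.4% of all entries were. The change lay below that of the median entry in 4 of them, where 50% of all entries did. AT2G35795, AT3G09700 and AT5G03030 are related to yeast Pam18, the J protein of the motor that pulls proteins into the matrix. AT2G35795 had 14.9% on day 8 against 29.5% on day 1, AT5G03030 had 21.4% and 38.4%, and AT3G09700 had 28.2% and 37.9%. Their changes of -0.99, -0.84 and -0.43 were unequal, with AT3G09700 above the median entry. AT5G06410, related to the yeast J protein of iron-sulfur cluster assembly, had 17.9% and 38.5%, a change of -1.10. ATJ1, a mitochondrial J protein of the general chaperone type, had 22.2% and 33.9%, a change of -0.61.

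Of the 12 members with signal on both days that were placed in the plastid group, 12 were lower on day 8, where 81.4% of all entries were. The group comes from general knowledge and may not hold every plastid member. The change lay below that of the median entry in 7, where 50% of all entries did, and the group's median change of -0.56 was close to the -0.52 of all entries. The median of their ratios was 23.2% on day 8 against 32.4% on day 1. The lowest day 8 ratios of the group were those of NdhU, PSA2 and NdhT, which have a part in photosynthetic complexes. NdhU and NdhT were named for their low values and PSA2 after its value was seen, so no pattern was tested. BSD2 and LQY1, also of photosynthesis, had 19.1% and 19.2% on day 8, above DJA4 with 18.1%. NdhU had 7.01% on day 8 against 27.0% on day 1, a change of -1.94. NdhT had 14.7% and 20.3%, a change of -0.47 from a ratio that was already among the 3 lowest of the family on day 1. Both belong to the chloroplast NADH dehydrogenase-like complex. PSA2, a lumenal protein of photosystem I assembly, had 11.3% and 30.1%, a change of -1.41.

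BSD2, a zinc finger protein of Rubisco assembly, had 19.1% on day 8 against 29.2% on day 1. LQY1, a zinc finger protein of photosystem II repair, had 19.2% and 30.7%. Together with PSA2 they are among the 5 entries that the table describes by the DnaJ cysteine-rich domain, all 5 of which had a change below that of the median entry, with a median of 19.2% on day 8 against 30.7% on day 1. The other two are AT5G17840, with 20.2% and 33.6%, and AT2G24860, with 22.6% and 37.4%.

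The plastid type A members differed among themselves. DJA5 had 29.0% on day 8 against 35.7% on day 1, DJA6 had 28.1% and 42.0%, and DJA4 had 18.1% and 29.7%. DJA7 was read by 2 probes, with 25.8% and 36.8% on the first and 31.6% and 46.9% on the second. The probes differed in ratio on each day, yet their changes were -0.51 and -0.57. ARC6, which positions the plastid division ring, had 29.2% on day 8 against 36.9% on day 1. The small plastid proteins J8 and J11 had 29.4% and 34.8%, and 28.6% and 34.3%, with changes of -0.25 and -0.26.

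Of the members of membrane traffic, 5 of 5 lay above the median entry in their change. GRV2, the homologue of the animal endosomal protein RME-8 and known from defects in gravitropism, had 53.3% on day 8 against 37.2% on day 1. Its change of 0.52 was the highest of the family, and its day 1 ratio was ordinary. Auxilins recruit HSP70 to strip clathrin from vesicles. Among their relatives, AT4G12780 had 48.6% on day 8 against 42.2% on day 1, AT4G36520 had 40.7% and 35.6%, AT1G30280 had 35.9% and 38.0%, and AT1G21660 had 32.7% and 44.5%. As deposited, 3 of the 5 were higher on day 8, and the group's median ratio was 40.7% on day 8 against 38.0% on day 1.

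**Figure D3:**
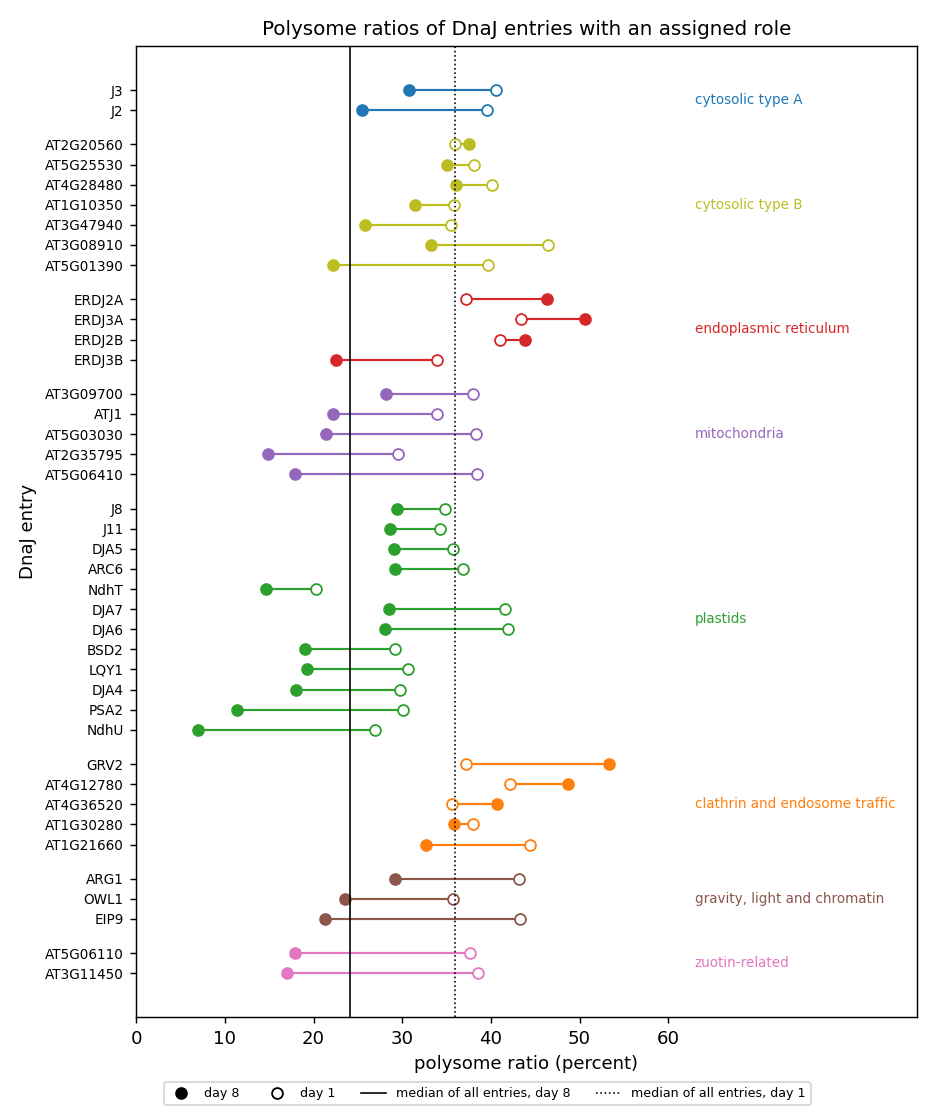
Polysome ratio (percent) on day 8 (filled points) and day 1 (open points) for the DnaJ entries with an assigned role and signal on both days, grouped by role, with vertical lines at the medians of all entries (24.2% on day 8, 36.0% on day 1). Day 8 points lie right of day 1 points for 3 of 4 endoplasmic reticulum members, 3 of 5 members of membrane traffic and AT2G20560, and left of them elsewhere.

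In the group for gravity, light and chromatin, 3 of 3 members were lower on day 8, where 81.4% of all entries were. Of the 3, 2 had changes close to the median entry's -0.52. ARG1, which acts early in the response of roots and shoots to gravity, had 29.2% on day 8 against 43.2% on day 1, a change of -0.56. OWL1, a factor in responses to very weak light, had 23.6% and 35.7%, a change of -0.60. EIP9, named for binding the polycomb-related protein EMF1, had 21.3% and 43.3%, a change of -1.02. AT3G11450 and AT5G06110, which pair a J domain with a Myb-like domain, are related to yeast zuotin, a chaperone that sits on ribosomes. AT3G11450 had 17.0% on day 8 against 38.5% on day 1, and AT5G06110 had 17.9% and 37.7%. Their changes, -1.18 and -1.07, were alike, and both passed 2-fold.

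**Figure D4:**
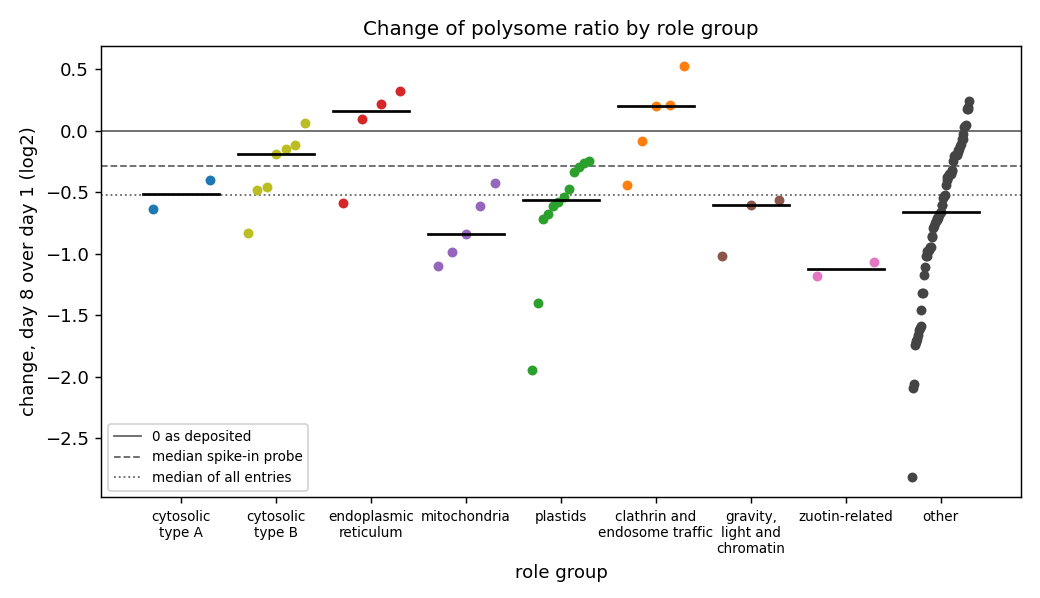
Change of polysome ratio (log2 of day 8 over day 1, vertical axis) of each DnaJ entry with signal on both days, by role group, with black bars at group medians and lines at 0 as deposited, at the median spike-in probe (-0.29) and at the median of all entries (-0.52). Endoplasmic reticulum and membrane traffic medians lie above 0 at 0.16 and 0.20, zuotin-related and mitochondrial medians at -1.12 and -0.84, and entries without an assigned role run from -2.81 to 0.24.

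The remaining 69 members with signal on both days were placed in no role group here. Of them, 18 (26.1%) were at least 2-fold lower, close to the 25.7% of all entries. The median of their ratios was 23.0% on day 8 against 36.5% on day 1. The lowest change of the family was that of AT5G37760, with 8.43% on day 8 against 59.3% on day 1, a change of -2.81. Its day 1 ratio was the highest of the family and lay 0.21 on the log2 scale from the local value of features without signal, and whether weak signal on that day had a part in it was not tested. AT3G62190 had the lowest ratio on both days, 3.88% on day 8 against 16.1% on day 1, a change of -2.06. AT5G18140, which RefSeq also lists as DJC69, had 7.67% and 32.8%, a change of -2.10.

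AT1G56300 had 9.16% on day 8 against 30.6% on day 1, and AT1G61770 had 9.64% and 31.6%. AT5G09540 had 11.7% and 36.9%. AT5G23590, with 12.4% and 40.9%, and AT5G22080, with 12.5% and 40.5%, lay at percentiles 80.4 and 78.3 of all entries on day 1. The changes of these 5 lay between -1.74 and -1.66. AT1G72416 rests on 3 probes, which read 10.4%, 12.5% and 11.2% on day 8 and 34.6%, 35.6% and 34.4% on day 1. Its probes differed by far less than the days did, and the mean change was -1.62.

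At the upper end, AT5G53150 had 45.0% on day 8 against 39.7% on day 1, and AT5G27240 had 42.9% and 37.9%. TPR15, which joins a J domain to tetratricopeptide repeats, had 30.1% and 25.4%, a change of 0.24. The other entries described with tetratricopeptide repeats were TPR16, with 29.8% and 34.2%, and AT4G02100, with 25.9% and 35.2%, and all 3 had a change above that of the median entry. AT1G71000 was low on both days, with 17.4% on day 8 against 17.0% on day 1. AT2G21510 had 35.3% on day 8 against 56.0% on day 1, and its day 1 value lay 0.11 on the log2 scale from the local value without signal. AT5G37440, with 28.4% and 46.5%, shared the next highest day 1 ratio with AT3G08910.

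Members that share a probe or a description, and neighbours, did not always share a ratio. AT2G05250 had 42.2% on day 8 against 37.0% on day 1 on its own probe, while the probe it shares with AT2G05230 read 27.7% and 32.9%. AT3G57340 and AT5G49060, which share a J domain followed by a domain of unknown function, had 18.0% and 34.8%, and 21.2% and 36.2%. In the RefSeq gene order of assembly TAIR10.1, 6 pairs of single-locus members with signal lay next to each other or with at most 3 genes between. The changes within these pairs differed by a median of 0.91 on the log2 scale, and how far other pairs of entries differ was not computed. AT5G37760 and AT5G37750, with 0 genes between, had changes of -2.81 and -0.98. AT2G20550, next but 1 to AT2G20560, had 22.8% on day 8 against 41.4% on day 1, a change of -0.86 beside 0.06 for AT2G20560. The pair AT5G18730 and AT5G18750 were alike, with changes of -0.03 and -0.13. Whether probes of such members bind more than 1 transcript was not tested.

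J proteins that the table describes in other words are outside the rule. P58IPK, a lumenal J protein of the endoplasmic reticulum, had 14.9% on day 8 against 32.6% on day 1. GFA2, a mitochondrial type A protein, had 23.0% and 36.6%. JAC1, an auxilin relative needed for chloroplast movement, had 26.2% and 26.5%. ARL1 and ARL2, relatives of ARG1, had 21.2% and 35.8%, and 10.4% and 18.0%. The zinc finger proteins SCO2 and OR, both of plastids, had 16.0% and 29.2%, and 18.5% and 33.3%. P58IPK thus lay lower on day 8 than each of the 4 endoplasmic reticulum members above.

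The other genes of the HSP70 cycle give the partners' values. Of 36 listed, 32 had signal on both days, with medians of 32.9% on day 8 against 37.5% on day 1. Of the 32, 23 lay above the median entry in their change and 9 below, where 50% of all entries lay below. As deposited, 11 were higher on day 8, where 18.5% of all entries were. At least 2-fold lower were 3, where 25.7% of all entries were. The 11 HSP70 genes had a median of 45.9% on day 8 against 40.1% on day 1, and 10 of them lay above the median entry. Among them the cytosolic Hsp70-2 had 49.7% on day 8 against 38.5% on day 1. BAG7, a BAG-domain regulator of HSP70, had 53.6% and 37.9%.

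Partners at the low end were nucleotide exchange factors and a further BAG gene. Fes1C had 7.26% on day 8 against 31.7% on day 1, the plastid GrpE gene EMB1241 had 8.69% and 35.5%, and BAG3 had 14.6% and 35.3%. Side by side within compartments, the mitochondrial mtHsc70-1 had 50.0% on day 8 against 42.1% on day 1, while the 5 mitochondrial J proteins had a median of 21.4% and 37.9%. In the endoplasmic reticulum BIP1 had 44.7% and 40.1%, BIP2 had 40.2% and 40.6%, and BIP3 had 51.6% and 53.1%, while the 4 J proteins had a median of 45.1% and 39.0%. The day 1 value of BIP3 lay where features without signal lay that day, such as AT1G11040 with 53.1%, so it is uncertain. In plastids cpHsc70-2 had 64.3% and 38.5% and cpHsc70-1 had 29.7% and 35.6%, while the 12 J and zinc finger proteins had 23.2% and 32.4%. None of these differences between groups was tested.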

How the data were processed

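The values are polysome ratios that the authors deposited for each of 39102 features, per the file headers, and were read here as log10 of polysomal over total RNA. The value table of the series differed from them by at most 0. The steps from scanner signals to ratios are not given in the sources. Both arrays had 2 channels, with RNA amplified from an oligo(dT) primer, per the labels' protocols. The log base was read from the spike-in probes, which spanned 0.925 to -0.838 on day 1. Ratios were converted to log2 and percent, and 0 columns of per-sample values were left unused.

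Features within 0.006 of a local median were left out. It was taken over the 30 nearest features of any kind within 0.04 of the negative-control median, on a grid of 85 columns. On day 8 the negative-control median (-2.00 on the log2 scale) lay near that of all entries (-2.05). Features with signal could therefore enter the local median. The rule took 26.9% of features with gene probes on day 8 against 25.5% on day 1, and 95.8% and 94.6% of negative controls. The rule was tested on simulated data. The simulated features without signal were placed at the rule's own local values, so that run checked the code, not how well the rule sorts real features. Spots, then probes, of an entry were averaged; 117 of 119 members have 1 probe. The 2 further features of AT1G72416, whose own description lacks DnaJ, were averaged in.

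The number of arrays limits the precision. The median SD was 0.02 on day 8 and 0.03 on day 1 between repeated spots of 22 probes, and 0.33 and 0.14 between probes of 449 entries (0.28 for the change), all log2 and within an array. RefSeq (TAIR10.1) gave names for 121 of 121 member loci; role groups come from general knowledge. Members, lists and groups were chosen with earlier results of these data known. Named members are the 10 lowest and 10 highest changes, the 3 lowest and highest ratios of each day, and listed members with textbook roles; others were named after their values were seen. The planned classes by protein motif and pairs by protein identity were not used here. Python 3.11.15 with pandas 2.3.3 and scipy 1.17.1 was used.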

Additional observations from a re-analysis of the deposited data

Results flagged for a closer look

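A probe named by the symbol J20, outside the rule on locus names, gave signal on both days, where 2 negative-control features (0.264%) did. It read 29.9% on day 8 against 38.2% on day 1, a change of -0.36 on the log2 scale. J20 is a plastid J protein that brings the enzyme DXS to HSP70. The probe named by its locus had signal on day 1 alone, with 31.8%.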

How the results depend on the processing

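Of 51 values recomputed under other settings, 43 moved by less than the spread between probes of an entry, or by at most 1.5 times for counts. The other 8 concern the position of 0 and the reading of the ratio. With 0 at the median spike-in probe, the median DnaJ change was -0.27 on the log2 scale, and 16 members were at least 2-fold lower, against 24 as deposited. With 0 at the median entry it was -0.040, and 12 members were at least 2-fold lower and 1 at least 2-fold higher. With the ratio turned, the median change was 0.56, with 0 members at least 2-fold lower and 24 higher, by construction. Read as polysomal over nonpolysomal and turned into a share of both pools, the median on day 1 was -1.89 on the log2 scale, the median change -0.41 (-0.40 for all entries), and 16 members were at least 2-fold lower. Keeping features without signal moved the median of all entries to -0.67, with 49 of 119 members below it. Settings without the 3 probes naming 2 loci, without descriptions that name no J domain, or with another reading of the ratio, were chosen after seeing the data. The alternative by protein motif was not run. No paired analysis was possible because each day has 1 array. With 1 array a day, no spread between cultures was measured.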
